A study of Mus musculus with 21 samples.

Results

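The 82 genes described here are the nuclear genes whose symbols in the count tables match the subunits of the mitochondrial respiratory chain and of ATP synthase, out of 40838 genes counted in mouse embryonic stem cells. They were taken by symbol alone, with no measured value, and Ndufa4 was left out. Complex I has 37 of these genes, complex II has 4, complex III has 9, cytochrome c has 1 (the somatic gene Cycs), complex IV has 14 and complex V, the ATP synthase, has 17. In all, 81 passed the filter on low counts. The gene that did not pass was Cox6a2, the striated muscle isoform of a complex IV subunit, which had 5 reads in the SL libraries of the 3 lines described next and none in the others.

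The study measured poly(A) RNA in 21 libraries of 8 groups and concerned the need of cells for pyruvate from the medium. All groups were embryonic stem cells kept for 48 h in mixed DMEM and NB medium, in which pyruvate was at 0.2 mM and the serum (10%) was dialyzed. In the first table, cells labelled LbNOX (3 libraries) were set against cells labelled vector (3 libraries), both in SL, that is serum with the cytokine LIF. LbNOX is a bacterial enzyme that oxidises NADH to NAD+ with oxygen and forms water. In the second table, SLC16A1 clone 1, SLC16A1 clone 2 and a line labelled chr8A were each sequenced in SL2i (2 libraries per line) and in SL (3 libraries per line). SL2i adds inhibitors of GSK3B and MEK, which hold embryonic stem cells close to the naive state. SLC16A1 encodes MCT1, a plasma membrane carrier of lactate and pyruvate. The labels do not say how the clones were altered or what chr8A is, and chr8A is used here as the line the clones were set against. Each SLC16A1 line is 1 clone, so a difference between a clone and chr8A cannot be told apart from a difference between clones in general. Nothing in the labels says that the libraries of a group came from separate cultures, so the spread behind each p-value is that between libraries and may be technical.

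The respiratory chain passes electrons from NADH (complex I) and succinate (complex II) through complex III and cytochrome c to oxygen at complex IV. Complexes I, III and IV move protons out of the mitochondrial matrix, and ATP synthase uses their return to make ATP. Embryonic stem cells have active mitochondria, and the most hydrophobic core subunits of complexes I, III, IV and V are encoded by mitochondrial DNA and are not among the genes described here. Small nuclear subunits of these complexes are known for leaving many processed pseudogenes in mammalian genomes.

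Library totals were 16521594 to 30008895 counts in the LbNOX table, 9784408 to 10908368 in the SL2i libraries and 15802072 to 30145771 in the SL libraries of the second table. The smallest SL library was thus deeper than the largest SL2i library, and medium and library set cannot be told apart. The 9 embryonic stem cell markers were detected in each group and summed to 6374 to 7046 CPM (counts scaled to a common library size) in SL2i and 4802 to 5139 CPM in the SL libraries of the same table, to which the sums that follow also belong. Markers of other cell types moved with medium as well. The trophoblast list summed to 38.4 to 104 CPM in SL2i and 491 to 716 CPM in SL, the primitive endoderm list to 5.41 to 10.5 and 20.6 to 25.8 CPM, and the fibroblast list to 10.8 to 13.6 and 54.1 to 62.8 CPM, with 3 to 4 of the 9 fibroblast markers at 0 in each SL2i group. The trophoblast sum is led by a few genes, and 3 of its 5 tested markers were higher and 2 lower in SL2i in each line. The 2-cell-like list summed to 5.75 to 10.1 CPM in SL2i and 0 to 0.23 CPM in SL. The part of these cells, or of the depth, in the results below was not tested. Between lines in SL2i, the trophoblast sum was 103 to 104 CPM in clone 1 and 97.1 to 99.8 CPM in clone 2 against 38.4 to 43.1 CPM in chr8A, and the primitive endoderm sum was 8.58 to 10.5 CPM and 8.71 to 10.4 CPM against 5.41 to 6.02 CPM. In bulk samples, fewer cells of a type and less RNA per cell cannot be told apart. Slc16a1 itself had 122 and 123 CPM in clone 1, 78.7 and 78.5 CPM in clone 2 and 157 and 167 CPM in chr8A in SL2i. In SL it had 168, 182 and 162 CPM in clone 1, 92.8, 91.4 and 96.5 CPM in clone 2 and 195, 201 and 198 CPM in chr8A. Each clone was below chr8A in both media without overlap, clone 2 by more than clone 1.

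A read from sequence that 2 genes share cannot be placed with certainty, so each gene was described by the percentage of the 30-base words of its transcripts that another gene of the GRCm38 annotation holds as well. The percentage was under 5% for 37 of the 82 genes, 5 to 20% for 16 and 20% or more for 28, and 1 gene, Ndufb1, was not matched. In all, 65 other genes each held at least 5% of the words of a subunit gene from another chromosome or as an annotated pseudogene, 62 of them annotated as pseudogenes. They are called copies here. These copies belonged to 31 subunit genes, with 13 of them for Atp5l alone. The coding sequences of 4 genes are shown because they span this range. Bases inside a shared word are in capitals. Cox7c (chromosome 13) is a small subunit of complex IV, Uqcrb (chromosome 13) one of complex III, Atp5l (chromosome 9) the g subunit of ATP synthase and Cox6b1 (chromosome 7) the intermembrane space subunit of complex IV. Sequences are 5′ to 3′ from the GRCm38 annotation, whole for Cox7c (192 bases) and Cox6b1 (261 bases) and the first 240 coding bases for Uqcrb and Atp5l.
Cox7c: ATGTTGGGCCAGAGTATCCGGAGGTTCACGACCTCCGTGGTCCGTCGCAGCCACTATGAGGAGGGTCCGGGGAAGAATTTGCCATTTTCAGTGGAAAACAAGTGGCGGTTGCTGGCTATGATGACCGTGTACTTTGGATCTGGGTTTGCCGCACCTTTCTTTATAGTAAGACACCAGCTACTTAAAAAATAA
Uqcrb: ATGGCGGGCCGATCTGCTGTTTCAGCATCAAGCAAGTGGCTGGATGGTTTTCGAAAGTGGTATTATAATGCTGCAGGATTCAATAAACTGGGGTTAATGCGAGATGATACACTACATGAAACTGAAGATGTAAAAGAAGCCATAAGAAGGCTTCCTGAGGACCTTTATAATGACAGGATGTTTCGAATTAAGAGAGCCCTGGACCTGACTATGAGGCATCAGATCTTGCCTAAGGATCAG
Atp5l: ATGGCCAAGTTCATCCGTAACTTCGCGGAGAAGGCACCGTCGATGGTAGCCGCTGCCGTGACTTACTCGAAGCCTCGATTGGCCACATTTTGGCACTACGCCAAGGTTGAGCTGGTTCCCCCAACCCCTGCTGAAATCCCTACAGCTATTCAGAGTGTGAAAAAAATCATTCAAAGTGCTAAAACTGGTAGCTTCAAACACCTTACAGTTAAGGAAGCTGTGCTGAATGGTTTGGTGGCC
Cox6b1: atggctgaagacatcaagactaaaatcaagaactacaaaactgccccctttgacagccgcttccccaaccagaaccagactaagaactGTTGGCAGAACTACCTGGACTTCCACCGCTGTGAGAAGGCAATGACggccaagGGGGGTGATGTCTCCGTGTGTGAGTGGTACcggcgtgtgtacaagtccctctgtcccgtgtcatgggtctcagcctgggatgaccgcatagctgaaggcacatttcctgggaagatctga
The coding bases of Cox7c, Uqcrb and Atp5l lay entirely in shared words (100%), against 29.1% of those of Cox6b1. Over the whole transcripts, which include the untranslated parts, the shared percentage of words was 56.0% for Cox7c, 59.1% for Uqcrb, 85.4% for Atp5l and 3.06% for Cox6b1.

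Most subunit genes had a higher level in CPM in SL2i than in SL. By the quasi-likelihood test of edgeR, with p-values Benjamini-Hochberg adjusted over all genes and a threshold of 0.05, 68 were higher and 1 was lower of 81 tested in clone 1, where 35.9% of all genes tested were higher and 37.1% lower. In clone 2 it was 67 higher and 3 lower (35.8% and 37.2% of all genes). In chr8A it was 70 higher and 1 lower (36.1% and 36.8% of all genes). The median log2 fold change over the 81 genes was 0.40 in clone 1, 0.39 in clone 2 and 0.47 in chr8A. In all, 62 subunit genes were higher in each of the 3 lines and none was lower in each. The share of all genes that was higher in all 3 lines was not counted. It can be no larger than the 35.8% that were higher in clone 2. No call was made in any line for Atp5e, Ndufa1, Ndufa7, Ndufb3 and Ndufs7. Without any test, all SL2i libraries of a line lay above all its SL libraries for 69 subunit genes in clone 1, 69 in clone 2 and 70 in chr8A, and below them for 2, 2 and 3. Over all genes tested the same held for 40.1%, 40.1% and 39.9% above and 41.2%, 41.4% and 40.9% below.

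**Figure D1:**
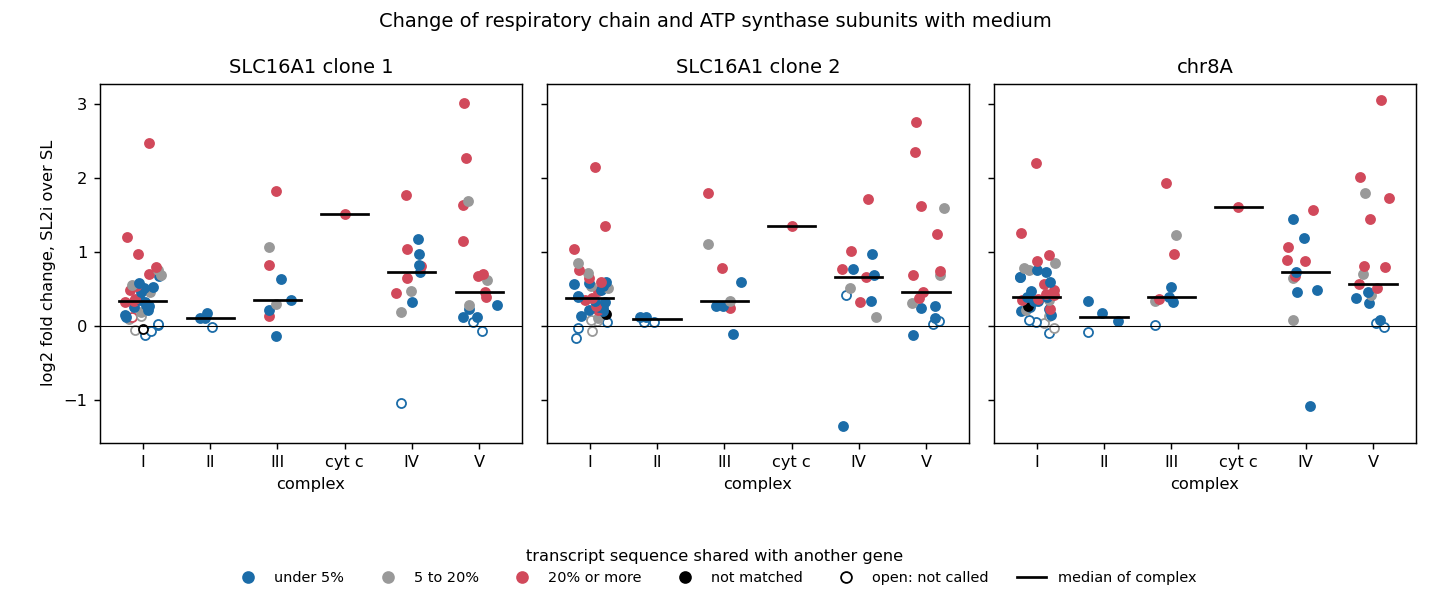
Each point is a subunit gene, with its log2 fold change of SL2i over SL on the vertical axis and its complex on the horizontal axis, in 1 panel per line. Filled points passed an adjusted p of 0.05, open points did not, colours give the percentage of sequence shared with another gene, and bars are medians of the complex, from 0.12 for complex II to 0.74 for complex IV in clone 1 (cytochrome c is 1 gene).

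The differences were smaller among genes with little shared sequence. Of the 37 genes under 5% of shared words, 28 were higher and 1 lower in clone 1, 26 and 3 in clone 2, and 29 and 1 in chr8A, with medians of 0.24, 0.26 and 0.34. Over all tested genes with under 5%, 33.7%, 33.3% and 33.4% were higher in these lines and the medians were -0.10, -0.09 and -0.08. Of the 28 subunit genes at 20% or more, 27, 28 and 28 were higher and none was lower, with medians of 0.75, 0.75 and 0.88. All genes tested in that class were higher in 41.5%, 43.5% and 43.5% and had a median of 0.18 in each line. Of all genes, 42.6%, 42.5% and 42.3% were lower in the class under 5% and 27.5%, 28.2% and 27.3% in the class at 20% or more. The class with more shared sequence thus had the higher median and the larger share of higher genes, both among the subunit genes and among all genes.

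**Figure D2:**
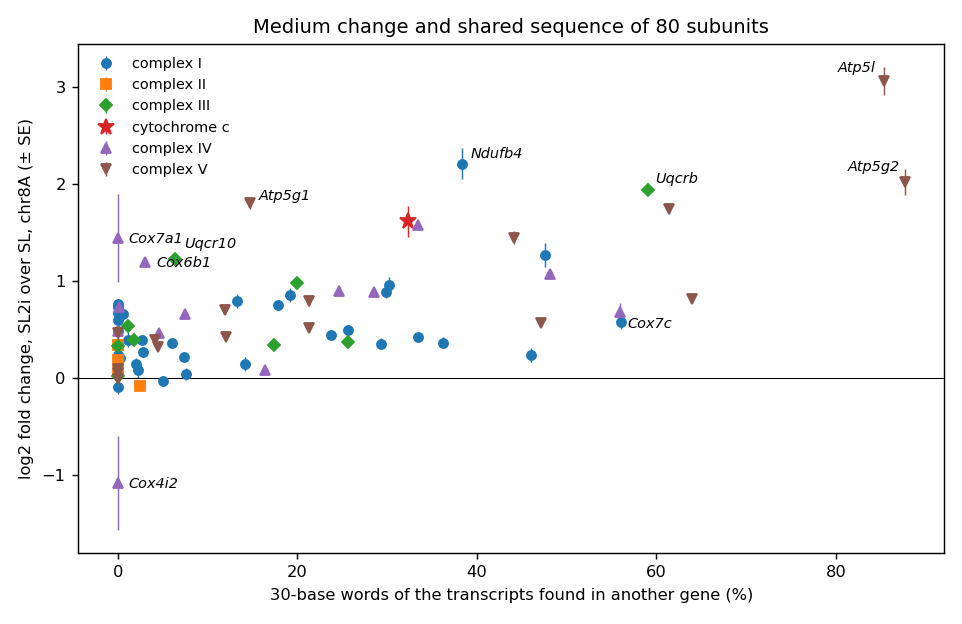
Each point is a subunit gene in chr8A, with the percentage of its 30-base words found in another gene on the horizontal axis and the log2 fold change of SL2i over SL with its standard error on the vertical axis. The labelled Atp5l, Atp5g2, Ndufb4 and Uqcrb, all above 38% of shared words, lie between 1.93 and 3.06, while Cox6b1 at 3.06% lies at 1.20. Other genes above 38% lie below Cox6b1, among them Cox7c (56.0%) at 0.69, Atp5o (64.0%) at 0.82 and Ndufb2 (46.0%) at 0.24. Atp5g1, with 14.7%, lies at 1.80.

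Of the medians over complexes I to V in CPM per kb, that of complex I was the lowest in each of the 8 groups, while the order of complexes III, IV and V differed between groups. The median over the genes of a complex in chr8A was 80.5 CPM per kb in SL2i and 60.1 in SL for complex I, 102 and 88.3 for complex II, 187 and 111 for complex III, 223 and 117 for complex IV, and 206 and 153 for complex V. Among the genes under 5% the medians were 88.8 and 66.7 for complex I, 102 and 88.3 for complex II, 115 and 97.1 for complex III, 143 and 103 for complex IV and 200 and 190 for complex V. Over all genes of a complex in SL2i, complex III was at 207 CPM per kb in clone 1 and 198 in clone 2, and complex V at 186 and 198. Atp5b, the catalytic beta subunit of ATP synthase, was the highest gene, at 1235 CPM per kb in SL2i and 991 in SL, and Cycs was among the lowest, at 3.76 and 1.23 CPM per kb.

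Complex I takes electrons from NADH through a flavin and a chain of iron-sulfur clusters. Of its 37 genes, 29 were higher in clone 1, 31 in clone 2 and 31 in chr8A, none was lower, and the medians were 0.34, 0.38 and 0.39. Among its 7 nuclear core subunits, 6 were higher in each line. Ndufv2, which holds a cluster of the NADH-oxidising module, had 161 and 158 CPM in SL2i against 108, 113 and 111 CPM in SL in clone 1. In clone 2 it had 177 and 165 CPM in SL2i against 111, 111 and 117 CPM in SL, and in chr8A 192 and 171 against 107, 114 and 107 CPM. The 6 SL2i libraries lay above the 9 SL libraries, and the log2 fold change was 0.53 ± 0.044 (SE) in clone 1, 0.60 ± 0.042 in clone 2 and 0.73 ± 0.042 in chr8A. Ndufv1, which binds the flavin and NADH, was higher by 0.46, 0.41 and 0.48 in the 3 lines, and Ndufs8, a cluster-bearing subunit near the quinone site, by 0.36, 0.49 and 0.67. Ndufs1, the largest core subunit, was higher by 0.11, 0.11 and 0.22. Its calls in clone 1 and clone 2 ended under 2 and 1 of 7 alternative settings. Ndufs7, the core subunit with the last cluster before quinone, was the exception, at 0.04 ± 0.068, -0.03 ± 0.067 and 0.06 ± 0.067 (adjusted p = 0.61, 0.74 and 0.44). Of the 30 accessory genes, Ndufv3 was higher by 0.68, 0.54 and 0.76 with no shared word, and Ndufb4 by 2.47, 2.15 and 2.21 with 38.3% of its words shared.

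Complex II oxidises succinate and has no mitochondrially encoded subunit. Over all genes of each complex, its differences were the smallest by median, at 0.12 in clone 1, 0.09 in clone 2 and 0.13 in chr8A. In these lines 3, 2 and 3 of its 4 genes were higher. All 4 had under 5% of shared words, while the other complexes also hold genes with more, so this ranking does not hold shared sequence equal. The 6 genes of complex V under 5% lay at -0.06 to 0.29 in clone 1, -0.11 to 0.28 in clone 2 and -0.01 to 0.46 in chr8A. Sdha, the flavoprotein that oxidises succinate, had 300 and 299 CPM in SL2i against 277, 276 and 277 CPM in SL in clone 1, 292 and 307 CPM against 298, 281 and 286 CPM in clone 2, and 281 and 280 CPM against 263, 266 and 269 CPM in chr8A. The groups overlapped in clone 2, where Sdha was not called (0.06 ± 0.033, adjusted p = 0.12). It was called in clone 1 (0.11 ± 0.034, adjusted p = 0.0019) and in chr8A (0.08 ± 0.033, adjusted p = 0.034), and the call in chr8A ended under 4 of 8 alternative settings. Sdhb, the iron-sulfur subunit, was higher in chr8A by 0.34 ± 0.045, with 117 and 111 CPM in SL2i against 87.3, 90.3 and 92.5 CPM in SL. In the clones its log2 fold change was -0.01 ± 0.048 and 0.06 ± 0.046. Sdhd, a membrane anchor, was higher by 0.12, 0.13 and 0.19, and the other anchor, Sdhc, by 0.18 in clone 1 and 0.13 in clone 2, with -0.08 ± 0.049 (adjusted p = 0.15) in chr8A.

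Complex III carries electrons from quinol to cytochrome c. Of its 9 genes, 8 were higher in each line, with medians of 0.36, 0.34 and 0.40. Uqcrc1, the first core protein, had 336 and 349 CPM in SL2i against 225, 211 and 222 CPM in SL in clone 1, 340 and 317 CPM against 215, 221 and 216 CPM in clone 2, and 311 and 310 CPM against 209, 215 and 218 CPM in chr8A. The media were apart in each line, by 0.64 ± 0.035, 0.60 ± 0.034 and 0.54 ± 0.034 on the log2 scale, and 1.11% of its words were shared. Cyc1, the cytochrome c1 subunit that hands electrons to cytochrome c, was higher by 0.36, 0.28 and 0.40. The Rieske iron-sulfur protein Uqcrfs1 went against the rest of its complex. It had 102 and 97.1 CPM in SL2i against 110, 105 and 111 CPM in SL in clone 1, 102 and 96.3 CPM against 110, 106 and 105 CPM in clone 2, and 113 and 108 CPM against 112, 113 and 103 CPM in chr8A. It was lower in clone 1 (-0.13 ± 0.048, adjusted p = 0.011) and in clone 2 (-0.10 ± 0.047, adjusted p = 0.040), calls that ended under 1 and 3 of 8 alternative settings, and it was not called in chr8A (0.02 ± 0.046, adjusted p = 0.75). The 5 small subunits were all higher in each line, among them Uqcr10 by 1.07, 1.11 and 1.23 with 6.36% of its words shared. Uqcrb, of the sequence shown above, had 161 and 152, 171 and 173, and 175 and 167 CPM in SL2i in clone 1, clone 2 and chr8A, against 43.7 to 51.3 CPM in the 9 SL libraries, and was 3.56, 3.49 and 3.82 times as high.

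Cytochrome c, the soluble carrier between complexes III and IV, had few reads for its gene Cycs. It had 11.7 and 13.6 CPM in SL2i against 4.55, 4.49 and 4.19 CPM in SL in clone 1, 10.7 and 13.7 CPM against 4.78, 4.08 and 5.45 CPM in clone 2, and 12.9 and 10.8 CPM against 3.97, 4.23 and 3.43 CPM in chr8A. The media did not overlap, and the log2 fold change was 1.52 ± 0.16, 1.36 ± 0.15 and 1.61 ± 0.16. Of its words, 32.3% were shared with other genes, 3 of them copies as defined above.

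Complex IV reduces oxygen to water. Of its 13 tested genes, 12 were higher in clone 1, 11 in clone 2 and 12 in chr8A, with medians of 0.74, 0.67 and 0.73. The 10 ubiquitous subunits among these tested genes were higher in every line. Cox6b1, little of which is shared, had 285 and 270 CPM in SL2i against 143, 141 and 138 CPM in SL in clone 1, 293 and 294 CPM against 152, 150 and 145 CPM in clone 2, and 339 and 297 CPM against 136, 136 and 143 CPM in chr8A. No SL2i library overlapped an SL library, and Cox6b1 was higher by 0.98 ± 0.039, 0.98 ± 0.038 and 1.20 ± 0.037, or 1.97, 1.97 and 2.30 times. Cox8a, a small membrane subunit, was higher by 0.74, 0.69 and 0.73 with 0.192% of its words shared. Cox5a and Cox5b were higher by 1.05, 1.02 and 1.07 and by 1.78, 1.72 and 1.58, with 48.1% and 33.5% of their words shared. Cox4i1, the common isoform of the largest nuclear subunit, had 402 and 386 CPM in SL2i against 345, 340 and 347 CPM in SL in clone 1, 396 and 387 CPM against 367, 348 and 362 CPM in clone 2, and 409 and 373 CPM against 375, 374 and 359 CPM in chr8A. The groups overlapped in chr8A. The log2 fold change of Cox4i1 was 0.19 ± 0.034 in clone 1, 0.13 ± 0.033 in clone 2 and 0.08 ± 0.033 (adjusted p = 0.022) in chr8A, and the last of these was -0.0048 without SL2i replicate 1 of chr8A.

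The tissue isoforms of complex IV stayed minor forms, each given here as a share of its pair in CPM per kb. Cox4i2, an isoform known from lung and from low oxygen, had 0.317 and 0.390 CPM in SL2i against 0.846, 0.709 and 0.632 CPM in SL in clone 1, 0.396 and 0.480 CPM against 1.18, 0.881 and 1.34 CPM in clone 2, and 0.387 and 0.790 CPM against 1.13, 1.01 and 1.60 CPM in chr8A. The media did not overlap in any line. It was lower in clone 2 (-1.35 ± 0.52, adjusted p = 0.017) and in chr8A (-1.08 ± 0.48, adjusted p = 0.039), and clone 1 gave -1.03 ± 0.61 (adjusted p = 0.12). The chr8A call ended under 5 of 8 alternative settings. Cox6b2, the testis isoform, was the most abundant of these forms. It had 44.1 and 44.0, 42.2 and 43.1, and 40.1 and 41.3 CPM in SL2i in clone 1, clone 2 and chr8A, against 23.2 to 31.5 CPM in SL, and was higher by 0.83, 0.78 and 0.49. In chr8A it made up 8.90% of the Cox6b pair in SL2i and 13.8% in SL, since Cox6b1 differed by more. Cox7a1, the heart and muscle isoform, was at 1.52% of the Cox7a pair in SL2i and 0.771% in SL of chr8A. It was called higher in clone 1 (1.18 ± 0.52, adjusted p = 0.036) and chr8A (1.44 ± 0.45, adjusted p = 0.0031), not in clone 2 (0.42 ± 0.57, adjusted p = 0.51), at 0.172 to 1.64 CPM per library. The call in clone 1 ended under 3 of 8 alternative settings and without SL2i replicate 1 or SL replicate 3 of clone 1. The common form Cox7a2 was higher by 0.33, 0.34 and 0.47.

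**Figure D3:**
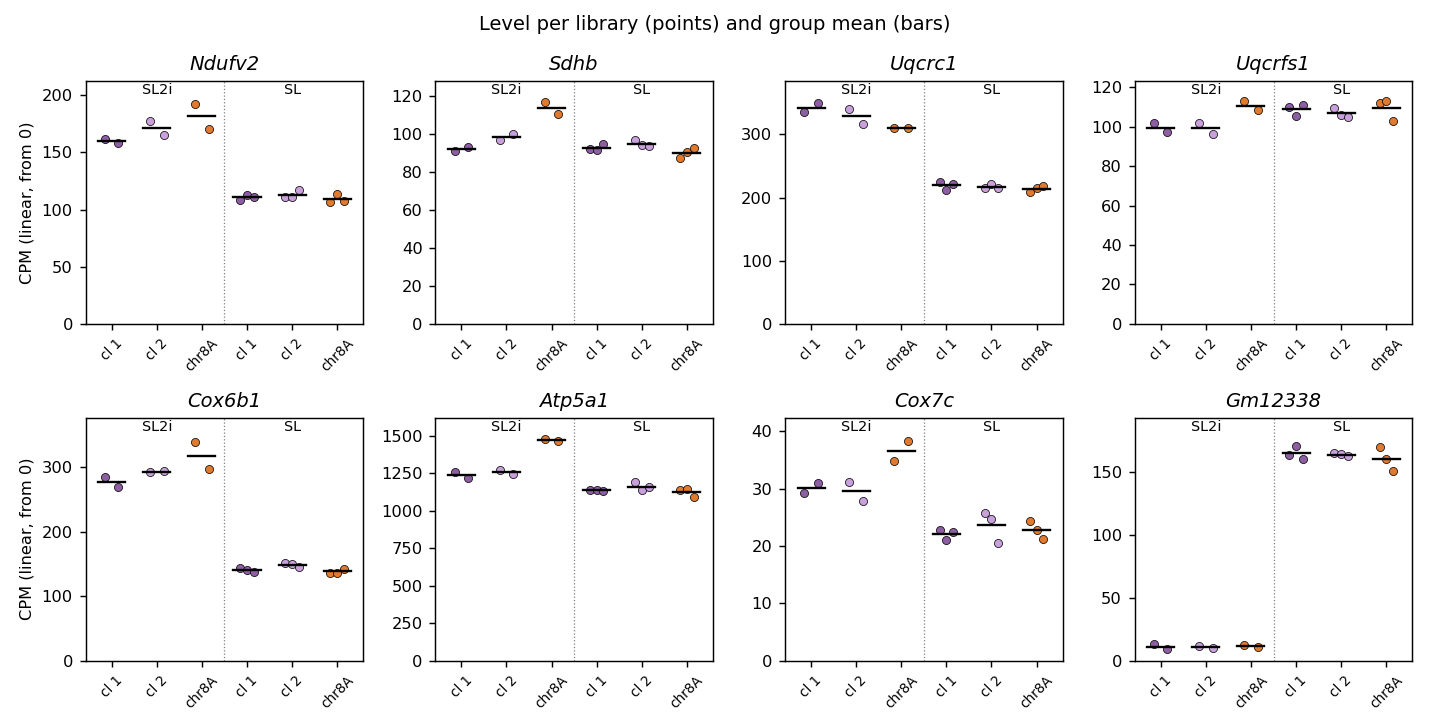
CPM (vertical axis, linear from 0) in each library of clone 1, clone 2 and chr8A (horizontal axis), SL2i left of SL, with bars at group means, for 7 subunit genes and for Gm12338, a copy of Cox7c. Uqcrfs1 stays between 96.3 and 113 CPM in all 15 libraries, while Gm12338 is at 9.36 to 12.9 CPM in SL2i and 150 to 170 CPM in SL.

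ATP synthase had 15 of 17 genes higher in clone 1, 14 higher and 1 lower in clone 2 and 15 higher in chr8A, with medians of 0.47, 0.46 and 0.57. In the F1 head, where ATP is made, the differences were small. Atp5a1, the alpha subunit, had 1261 and 1219 CPM in SL2i against 1137, 1140 and 1131 CPM in SL in clone 1, 1274 and 1245 CPM against 1192, 1136 and 1157 CPM in clone 2, and 1482 and 1465 CPM against 1139, 1144 and 1092 CPM in chr8A. The SL2i libraries lay above the SL libraries in each line, by 0.13 ± 0.031, 0.12 ± 0.031 and 0.39 ± 0.031. Atp5b was higher by 0.24, 0.25 and 0.32, and Atp5c1, counted with the head here, by 0.29, 0.32 and 0.43 with 12.1% of its words shared. Atp5e, the epsilon subunit, was not called in any line, and Atp5d, the delta subunit, only in clone 1 (0.13 ± 0.039). All 9 stalk and membrane genes were higher in each line, from 0.29 to 3.02 in clone 1, 0.28 to 2.76 in clone 2 and 0.46 to 3.06 in chr8A. Only 1 of these, Atp5mpl, had under 5% of shared words. It was the lowest of the 9 in each line, at 0.29, 0.28 and 0.46, near Atp5b and Atp5c1 of the head. Atp5l, of the sequence shown above, was the extreme of the 81 genes in each line. It had 21.2 and 19.5, 19.5 and 18.7, and 21.7 and 20.3 CPM in SL2i in clone 1, clone 2 and chr8A, against 2.21 to 3.16 CPM in SL, and was 8.12, 6.78 and 8.32 times as high.

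The c-ring, the rotor that protons turn, is made of 1 mature protein encoded by 3 genes that differ in their import signals. Atp5g3 was the main one. It had 255 and 239 CPM in SL2i against 255, 257 and 260 CPM in SL in clone 1, 259 and 223 CPM against 266, 259 and 256 CPM in clone 2, and 259 and 270 CPM against 251, 250 and 245 CPM in chr8A. Only in chr8A were the media apart. Its log2 fold change was -0.06 ± 0.038 (adjusted p = 0.16) in clone 1, -0.11 ± 0.038 (adjusted p = 0.0059) in clone 2 and 0.09 ± 0.037 (adjusted p = 0.027) in chr8A, a call that ended under 4 of 8 alternative settings. Atp5g1 was higher by 1.69, 1.60 and 1.80 with 14.7% of its words shared, and Atp5g2 by 2.27, 2.36 and 2.02 with 87.7% shared. In chr8A the shares of the 3 genes in CPM per kb were 29.99% in SL2i and 12.6% in SL for Atp5g1, 8.83% and 3.19% for Atp5g2, and 61.2% and 84.2% for Atp5g3. The size of these shares depends on the deposited gene lengths. Atpif1, the inhibitor that keeps ATP synthase from running in reverse, is no subunit and was higher by 0.15 ± 0.040, 0.18 ± 0.039 and 0.26 ± 0.038.

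Of the 65 copies of subunit genes, 8 had a row in the tables and 6 were tested. In SL2i 4 of these 6 were lower in each line, and 1 was higher in clone 2 and in chr8A. Gm12338, which holds 31.9% of the words of Cox7c, had 12.9 and 9.36 CPM in SL2i against 164, 170 and 160 CPM in SL in clone 1, 11.5 and 9.99 CPM against 164, 164 and 162 CPM in clone 2, and 12.8 and 10.5 CPM against 170, 160 and 150 CPM in chr8A. Its log2 fold changes were -3.90, -3.93 and -3.78. Cox7c had 29.2 and 31.0 CPM in SL2i against 22.7, 21 and 22.5 CPM in SL in clone 1, 31.2 and 27.8 CPM against 25.7, 24.8 and 20.5 CPM in clone 2, and 34.8 and 38.3 CPM against 24.3, 22.8 and 21.2 CPM in chr8A. Cox7c was higher, by 0.45, 0.33 and 0.69, with the media apart in each line, while Gm12338 moved the other way. In chr8A the mean of Cox7c was 36.55 CPM in SL2i and 22.7 CPM in SL. The summed mean of its 2 copies with a row was 11.7 CPM in SL2i and 160 CPM in SL. The sum of Cox7c and these copies was thus lower in SL2i, the reverse of Cox7c alone. Ndufab1-ps was lower, at -3.49, -3.23 and -4.04, as were Ndufs6b, at -4.11, -4.61 and -3.81, and Gm11633, a copy of Cox5a, at -3.56, -4.52 and -3.33. Their partners Ndufab1 (0.76, 0.86 and 0.79), Ndufs6 (0.34, 0.36 and 0.44) and Cox5a were higher in each line. In chr8A the means in SL2i and SL were 47.9 and 27.6 CPM for Ndufab1 and 0.833 and 13.8 CPM for Ndufab1-ps. For Ndufs6 they were 99.8 and 73.4 CPM, and for Ndufs6b 0.537 and 7.66 CPM. Each gene summed with its copy was still higher in SL2i, but by less than the gene alone. Gm11633, at 0.0966 and 1.05 CPM, was too low to alter Cox5a, at 343 and 164 CPM, by much. These sums were not tested. The copy that was higher in chr8A was Ndufb4c (0.78 ± 0.37, adjusted p = 0.049), which was also higher in clone 2 and was not called in clone 1. The counting could have split reads between a gene and its copy, or between it and another gene that holds the same sequence. The levels and changes of the 28 genes at 20% or more are uncertain for this reason, with Cox7c, Uqcrb, Atp5l, Atp5g2, Ndufb4, Cox5a, Cox5b and Cycs among them. Of these genes, 20 had 20% or more of their words in copies. The rest reached 20% only with genes of the same chromosome not annotated as pseudogenes, such as Smim27 for Ndufb6 (36.2%) and Pdzd9 for Uqcrc2 (25.6%). The part of such splitting in the differences was not tested.

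Promoter windows from 250 bases before to 50 bases after the start were given by RefSeq (GRCm38.p6) for 67 of the 82 genes, as 72 windows. They were searched on both strands for 3 words of factors known to act at respiratory chain genes. The NRF1 word, its own reverse complement and in capitals in the Uqcrc1 window printed here, was in 5 windows (6.94%) against 0.971% of all 32851 windows. The ETS word CCGGAAG or CTTCCGG, of the kind bound by GABP, was in 17 (23.6%) against 8.86%. The ERR word TCAAGGTCA or TGACCTTGA was in 2 (2.78%) against 0.423%. None of the 3 words contains another. The windows of Cox6b1 and Uqcrc1 are shown because these genes were higher in SL2i in each line with little shared sequence, and each holds 1 such word, in capitals: the ETS word for Cox6b1 (complex IV, chr7:30626065-30626364, minus strand) and the NRF1 word for Uqcrc1 (complex III, chr9:108936398-108936697, plus strand).
Cox6b1: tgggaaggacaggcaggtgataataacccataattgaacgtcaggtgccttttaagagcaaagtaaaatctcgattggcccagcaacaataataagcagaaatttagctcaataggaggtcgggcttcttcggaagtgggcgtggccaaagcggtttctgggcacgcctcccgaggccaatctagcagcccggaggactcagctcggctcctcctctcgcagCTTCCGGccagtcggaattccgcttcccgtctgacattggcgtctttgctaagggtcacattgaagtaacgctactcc
Uqcrc1: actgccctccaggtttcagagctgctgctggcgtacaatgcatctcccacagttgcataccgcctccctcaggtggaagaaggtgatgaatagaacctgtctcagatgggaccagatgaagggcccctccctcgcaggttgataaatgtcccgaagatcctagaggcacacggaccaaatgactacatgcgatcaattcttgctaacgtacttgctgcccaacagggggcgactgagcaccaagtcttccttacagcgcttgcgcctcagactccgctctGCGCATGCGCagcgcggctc
The other windows with the NRF1 word were those of Atp5g2, Atp5k, Cox6a1 and Ndufa11, and those with the ERR word were Atp5g3 and Sdhd. A match is a description of these letters and not of binding. Whether genes with a word differed from genes without one in their change with medium was not tested.

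The assembly factors are described by complex. Their lists hold only 4 to 19 tested genes, and a difference between complexes was not tested. Their counts stand against the 35.9%, 35.8% and 36.1% of all genes that were higher and the 37.1%, 37.2% and 36.8% that were lower in clone 1, clone 2 and chr8A. Of 17 assembly factors of complex I, 6 were higher and 7 lower in SL2i in clone 1, 8 and 5 in clone 2, and 7 and 3 in chr8A, near the share of all genes in clone 1. In chr8A, Aifm1, a flavoprotein needed for complex I biogenesis, was higher by 1.05 ± 0.050 and Ndufaf5, which modifies a core subunit, by 1.19 ± 0.10, while Timmdc1, which takes part in membrane arm assembly, was lower (-0.55 ± 0.078). For complex III, 4 of 6 were higher and 1 lower in each clone and 3 higher in chr8A, among them Uqcc3 by 0.68. For complex IV it was 11 higher and 1 lower of 19 in clone 1, 12 and 2 in clone 2, and 11 and 1 in chr8A, with Higd2a at 1.01 and Coa7 at 0.77 in chr8A. For ATP synthase none of 5 was higher in the clones and 1 in chr8A, and 2 were lower in each line. Tmem70, which supports c-ring assembly, was at -0.72, -0.63 and -0.93, and Tmem242 at -1.31, -1.01 and -0.67. Complex II factors had 1 higher and 1 lower of 4 in clone 1 and in chr8A and 1 higher in clone 2. Of 15 regulators of these genes, 6 were higher and 5 lower in clone 1, 5 and 8 in clone 2, and 6 and 4 in chr8A. The median log2 fold change over the 15 was -0.08, -0.11 and -0.07. Esrrb, a nuclear receptor of naive stem cells that binds ERR words, was higher in chr8A by 1.58 ± 0.032, and Gabpa, the DNA-binding subunit of GABP, by 0.73 ± 0.037. Both are among the higher regulators, the lower ones are not named here, and the part of any regulator was not tested.

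Fewer subunit genes differed between a clone and chr8A than between the media. Both clones were set against the same chr8A libraries, so their results are not independent. In SL, 4 subunit genes were higher and 7 lower in clone 1, where 8.83% of all genes were higher and 7.77% lower, and 13 were higher and 3 lower in clone 2 (14.3% and 12.6% of all genes). In neither clone was the share of subunit genes far above that of all genes in either direction. In clone 1 the lower genes were Cox4i1 (-0.10 ± 0.029), Cox5a, Cox6a1, Cox8a, Cox6b2 (-0.23 ± 0.064), Ndufa7 and Ndufv3, and the higher ones were Ndufs1, Ndufa1, Atp5md and Ndufb10, none beyond 0.20. In clone 2 the lower genes were Cox6b2 (-0.22 ± 0.061), Ndufa7 (-0.11) and Atp5g2 (-0.37), and among the higher ones were Ndufs1 (0.14 ± 0.033), Ndufa5 (0.22 ± 0.057) and Sdha (0.11 ± 0.028). Cox6b2 had 25.0, 26.2 and 23.2 CPM in clone 1 and 23.6, 24.0 and 26.7 CPM in clone 2, against 27.5, 28 and 31.5 CPM in chr8A. Both clones were below chr8A without overlap. These counts depended on single libraries. In clone 1 leaving out any 1 of chr8A replicates 1, 2 and 3 left 6, 4 and 4 called genes, and leaving out clone 1 replicates 1, 2 and 3 left 4, 7 and 4. In clone 2 the count was 9 and 10 without chr8A replicates 1 and 2, and 7 and 8 without clone 2 replicates 1 and 3. With DESeq2's size factors in place of TMM, clone 2 had 9 higher and 4 lower.

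In SL2i, 6 subunit genes were higher and 27 lower in clone 1 than in chr8A (10.4% and 12.1% of all genes), and 5 were higher and 16 lower in clone 2 (9.74% and 10.8% of all genes). Atp5a1 was lower in clone 1 (-0.25 ± 0.034, adjusted p = 2.7e-09) and in clone 2 (-0.23 ± 0.034, adjusted p = 5.3e-08). Sdhb had 90.9 and 93.3 CPM in clone 1 and 96.9 and 100 CPM in clone 2, against 117 and 111 CPM in chr8A, and was lower (-0.30 ± 0.054 and -0.21 ± 0.053). Ndufs8 had 59.5 and 54.8 CPM in clone 1 and 64.5 and 57.3 CPM in clone 2, against 73.9 and 71.0 CPM in chr8A, and was lower (-0.34 ± 0.069 and -0.25 ± 0.068). In each of these genes the clones and chr8A did not overlap. Some went the other way. Ndufa8, an accessory subunit of complex I, had 51.8 and 50.4 CPM in clone 1 and 53.2 and 51.5 CPM in clone 2, against 42.0 and 39.4 CPM in chr8A, and was higher by 0.33 ± 0.078 and 0.36 ± 0.077. Sdhc was higher by 0.20 and 0.21, Ndufs3, a core subunit of complex I, by 0.24 and 0.20, and Cox5b by 0.16 and 0.20, but each of these calls ended with at least 1 library left out. Of the named genes called in SL2i, 6 of 21 in clone 1 and 2 of 15 in clone 2 kept their call with any 1 library left out, with Atp5a1 and Ndufa8 among them in both clones. The trophoblast markers moved in the same comparison, with 4 of 5 tested higher in each clone than in chr8A and none lower, and their part was not tested. Replicate 1 of chr8A in SL2i weighed on these counts. Without it, clone 1 had 5 higher and 11 lower and clone 2 had 5 higher and 3 lower. Without clone 1 replicate 2, clone 1 had 15 called genes, and without clone 2 replicate 2, clone 2 had 5 higher and 3 lower.

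The change with medium itself differed between a clone and chr8A for 25 subunit genes in at least 1 clone, by the test of the interaction. In clone 1 the log2 change was above that of chr8A for 4 genes and below it for 15 (7.78% and 9.24% of all genes), and in clone 2 above it for 4 and below it for 12 (7.69% and 9.18% of all genes). The difference was -0.26 ± 0.044 in clone 1 and -0.27 ± 0.044 in clone 2 for Atp5a1 (adjusted p = 1.2e-06 and 5.3e-07), and -0.35 ± 0.066 and -0.28 ± 0.064 for Sdhb (adjusted p = 2.6e-05 and 0.00058). Both calls of both genes held with any 1 library left out and under each alternative setting. Ndufs4, an accessory subunit of the NADH-oxidising arm, had 79.2 and 74.2 CPM in SL2i against 75.1, 77.6 and 74.4 CPM in SL in clone 1, 78.7 and 82.3 CPM against 75.9, 78.7 and 77.6 CPM in clone 2, and 96.5 and 86.3 CPM against 73.3, 74.2 and 69.5 CPM in chr8A. The media were apart only in chr8A, and the interaction was -0.32 ± 0.073 and -0.28 ± 0.071. Ndufa8 (0.31 and 0.36), Sdhc (0.26 and 0.21) and Cox6b2 (0.34 and 0.29) were above chr8A in their change in both clones. Of the 5 tested trophoblast markers, 4 were also above chr8A in their change in each clone, and their part was not tested. Without SL2i replicate 1 of chr8A, 7 interactions were called in clone 1 and 9 in clone 2, and the calls of Ndufs4 and Cox6b1 ended in both. Without SL2i replicate 2 of the clone itself the counts were 10 and 8.

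**Figure D4:**
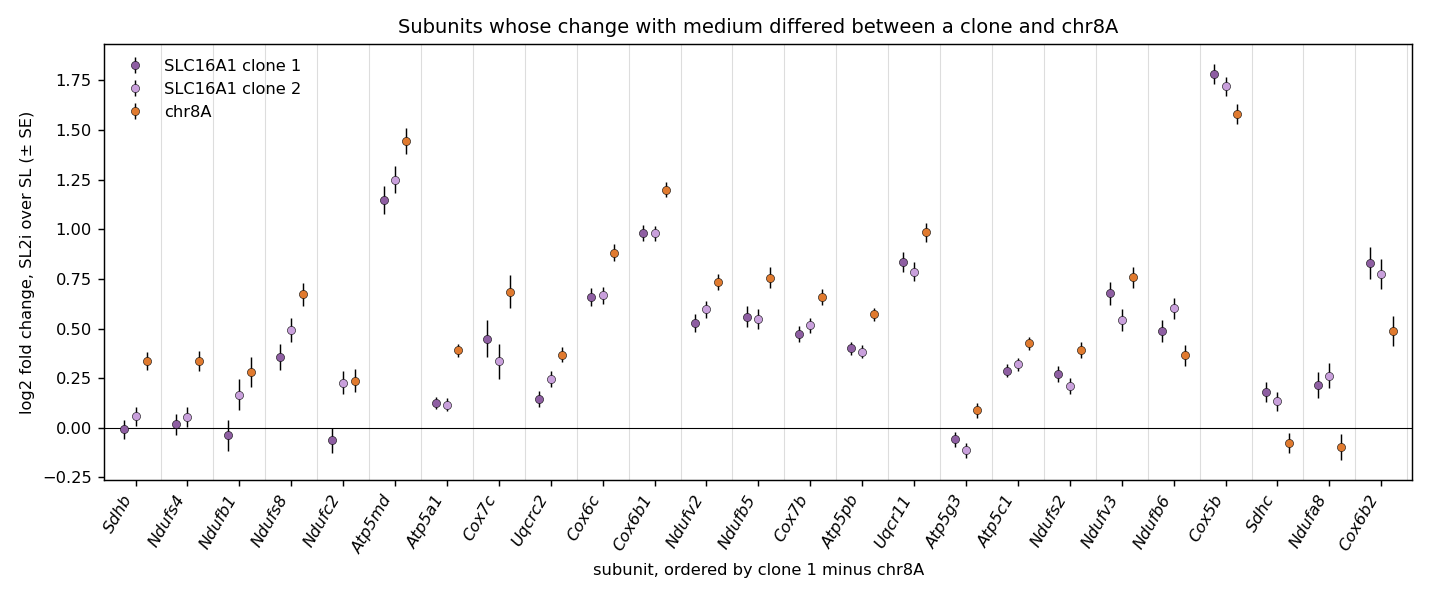
Log2 fold change of SL2i over SL with its standard error (vertical axis) in clone 1, clone 2 and chr8A for the 25 subunit genes (horizontal axis, ordered by clone 1 minus chr8A) with a called interaction in at least 1 clone. At the left Sdhb is at -0.01 in clone 1, 0.06 in clone 2 and 0.34 in chr8A, and at the right Cox6b2 is at 0.83, 0.78 and 0.49.

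No subunit gene differed detectably between LbNOX and vector cells. No gene of the 81 was higher or lower in LbNOX than in vector cells in edgeR's test or in DESeq2's (0.0372% of all genes were called by edgeR), and 2 had an unadjusted p under 0.05, as did 3.75% of all genes. The median log2 fold change was 0.004 for complex I, -0.002 for complex II, -0.022 for complex III, 0.023 for complex IV and 0.001 for complex V, and over the 81 genes the median size of the change was 0.0375. The 3 genes with the smallest p were Cox7c, Cox4i1 and Ndufb1. Cox7c had 19.2, 15.8 and 15.9 CPM in LbNOX cells against 21, 22 and 18.6 CPM in vector cells, with overlap, and a log2 fold change of -0.28 ± 0.10. Cox4i1 had 413, 438 and 412 CPM against 400, 395 and 381 CPM, without overlap, and 0.10 ± 0.040. Ndufb1 gave -0.13 ± 0.077. The adjusted p was 0.9997 for each of the 3. Slc16a1 had 149, 143 and 157 CPM in LbNOX cells against 154, 153 and 159 CPM in vector cells. The assembly factors and regulators had no called gene either. The labels' enzyme itself has no row among the mouse genes, so its level was not analysed here.

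**Figure D5:**
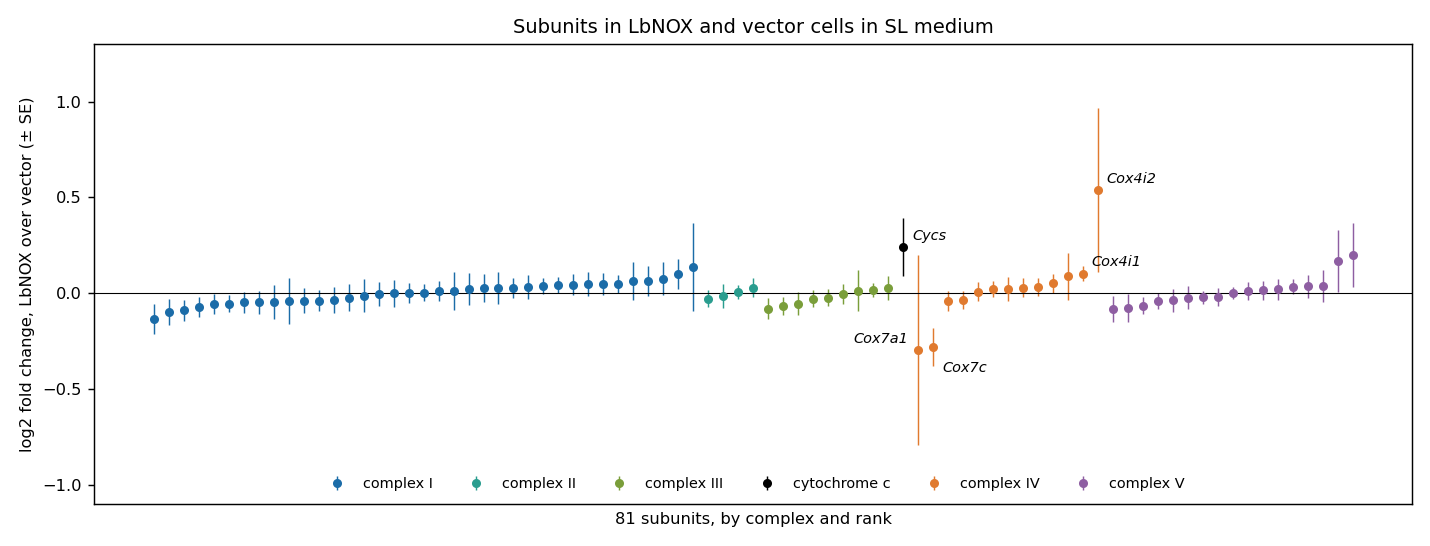
Log2 fold change of LbNOX over vector cells with its standard error (vertical axis) for the 81 tested subunit genes, in rank order within each complex (horizontal axis). The points lie around 0, from -0.30 (Cox7a1) to 0.54 (Cox4i2), and none passed the test.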

How the data were processed

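The authors deposited raw counts per gene in 2 tables, 1 with the LbNOX and vector libraries and 1 with the libraries of clone 1, clone 2 and chr8A. Per the submitters' processing notes, DRAGEN 3.10, featureCounts of Subread and the build GRCm39 were used. Library preparation was stranded, per the labels' protocols, while for the counting neither a strand setting nor the handling of multiply matching reads is known here (not given in the sources used here). A deposited gene length column, in a unit of bases (other), served for levels per kb. Of the 40838 genes, 19 had no symbol.

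Counts were fitted as deposited, per table, with edgeR 4.0.16 (filterByExpr, TMM, robust quasi-likelihood F test, R 4.3.3, limma 3.58.1), and p-values were Benjamini-Hochberg adjusted over all genes of each of the 10 comparisons. CPM values use the TMM library sizes. Errors beside log2 fold changes are standard errors (SE). There were 16119 tested genes in the first table and 17178 in the second. DESeq2 1.42.0, other filters, factors and depths, and leaving out each library were alternatives. The procedure was tested on simulated data. Where a sentence gives 3 values without names for the change with medium, they are those of clone 1, clone 2 and chr8A, and where it gives 2 for the clones, those of clone 1 and clone 2.

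Shared words (30 bases) came from GENCODE transcripts of GRCm38, which 75.7% of the genes in the tables and 92.6% of those tested were matched to. The members, lists, motifs and tests were chosen with earlier results of these data known. Named genes were the isoform pairs, c-ring genes and catalytic or carrier subunits, up to 2 called genes per complex with the largest change under 5% and at or over 20% of shared words, the 3 smallest p where none was called, genes going against their complex, and up to 4 called genes per list. Ndufs7, Ndufs3, Ndufs6, Ndufab1, Atp5c1, Atp5d, the genes called in no line and the copies were named after their values were seen.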

Additional observations from a re-analysis of the deposited data

Results flagged for a closer look

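Values are the difference, on the log2 scale, between the change with medium in a clone and that in chr8A, each called by the interaction test and each sharing the same chr8A libraries between the clones. In clone 1 the difference was -0.26 for Atp5a1, -0.15 for Atp5g3, -0.30 for Atp5md and -0.17 for Atp5pb, all of ATP synthase. In complex IV it was 0.20 for Cox5b, -0.22 for Cox6b1, 0.34 for Cox6b2 and -0.22 for Cox6c. In the other complexes of clone 1 it was 0.31 for Ndufa8, -0.32 for Ndufs4, -0.32 for Ndufs8, -0.35 for Sdhb, 0.26 for Sdhc and -0.22 for Uqcrc2. In clone 2 the difference was -0.27 for Atp5a1, -0.20 for Atp5g3 and -0.19 for Atp5pb. In complex IV of clone 2 it was -0.22 for Cox6b1, 0.29 for Cox6b2, -0.22 for Cox6c and -0.35 for Cox7c. In the remaining complexes of clone 2 it was 0.36 for Ndufa8, 0.24 for Ndufb6, -0.28 for Ndufs4, -0.28 for Sdhb, 0.21 for Sdhc and -0.20 for Uqcr11. Of the 14 named genes in clone 1, 3 kept their call with each library left out and under each alternative setting, and of the 13 in clone 2, 4 did.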

How the results depend on the processing

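Counts of called subunit genes are given. The cause of a moved count was not tested, except that counting or fitting only genes with under 5% of shared words leaves fewer genes. Fitted on such genes alone, the medium comparison called 29 in clone 1, 32 in clone 2 and 30 in chr8A, and with only such genes counted 29, 29 and 30. In SL, clone 1 against chr8A (11 called) had 6 with no filter, 4 with DESeq2, 4 at equal depth, 5 fitted on genes under 5% and 5 with only those counted. Clone 2 in SL (16 called) had 10 with no filter, 8 with DESeq2, 7 at equal depth and 9 with only genes under 5% counted. In SL2i, clone 1 (33 called) had 15 and 15 under the pair of settings for genes under 5%, and clone 2 (21 called) 12 and 10. The interaction of clone 1 (19 called) had 12 and 11 under these, and that of clone 2 (16 called) 10 and 10, with 9 at equal depth. The other 65 counts under alternatives stayed within 1.5 times. Leaving out each library gave 0 to 0 for LbNOX, 64 to 69, 62 to 71 and 67 to 71 for medium in clone 1, clone 2 and chr8A, 4 to 12 and 7 to 14 for the clones in SL, 15 to 34 and 8 to 23 in SL2i, and 7 to 20 and 8 to 17 for the interactions. Cox4i1 in chr8A changed sign with medium, to -0.0048, without SL2i replicate 1 of chr8A.

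Deviations of same-numbered libraries from their group means were little correlated (r from -0.159 to 0.127 across genes). With groups of 2 or 3 libraries this cannot show whether the numbers pair cultures or batches, and the libraries were not treated as paired. With the replicate number as a block, the called counts were 0 for LbNOX, 68, 70 and 70 for medium in clone 1, clone 2 and chr8A, 12 and 22 for the clones in SL, 35 and 25 in SL2i, and 22 and 17 for the interactions. Low counts limit Cox4i2 and Cox7a1, with under 2 CPM in each library.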
